A study of Mus musculus with 4 samples.

Results

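The genes of oxidative phosphorylation were followed through the 4 RNA-sequencing libraries of LSK-SLAM cells, the haematopoietic stem cell (HSC)-enriched population that lacks lineage markers and carries Sca1, cKit and CD150 but not CD48. Members were chosen by name: every gene symbol starting with Nduf, Uqcr, Cox4, Cox5, Cox6, Cox7, Cox8 or Atp5, together with *Sdha*, *Sdhb*, *Sdhc*, *Sdhd*, *Cyc1* and *Cycs*. This gave 94 of the 23906 symbols, of which 36 belong to complex I, 4 to complex II, 9 to complex III, 20 to complex IV and 15 to complex V, with cytochrome c (*Cycs*) and 9 assembly or coupling factors that share the prefixes. All cells came from BRE-GFP transgenic mice, whose GFP is driven by a BMP-responsive element, so that GFP+ cells are called BMP-activated and GFP- cells non-BMP-activated. One pair of libraries, GFP+ and GFP-, was from the fetal liver (FL) at embryonic day 14 and the other pair from adult bone marrow (BM). The mice were of a transgenic line kept on a C57BL/6 background, and the embryos came from heterozygous males mated with wild-type females. How many embryos or mice were pooled for a library, and the age and sex of the adults sequenced, were not given in the sources used here for these libraries. Each group had 1 library, so the differences described here have no replicate check and no test was made of any of them.

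Oxidative phosphorylation is the process by which mitochondria turn electrons from food molecules into ATP. Complex I takes electrons from NADH and complex II from succinate, complex III passes them to the small carrier cytochrome c, and complex IV hands them to oxygen. Complexes I, III and IV pump protons out of the mitochondrial matrix, and complex V (ATP synthase) lets the protons flow back and uses that flow to make ATP. Adult HSCs are known for a quiescent, largely glycolytic state, while FL HSCs divide often. Most subunits are encoded in the nucleus and are described here, whereas the subunits encoded by mitochondrial DNA were not analysed here.

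Promoter sequences are shown for 5 complex IV genes, because they are ubiquitous and tissue-restricted forms of the same subunits and differed from each other in their levels across the libraries. Each run is the 200 bases before the RefSeq start of the gene in GRCm38.p6, 5′ to 3′ on the gene's own strand. Capitals mark letters of the NRF1 motif (GCGCANGC), an ETS motif (CCGGAAG) or CCAAT, searched on both strands, where overlapping matches run together. *Cox6a1*, the ubiquitous form of subunit VIa, lies at chr5:115348959-115349158 on the minus strand. *Cox6b1*, the ubiquitous form of subunit VIb, lies at chr7:30626115-30626314 on the minus strand, and its testis form *Cox6b2* lies at chr7:4753095-4753294 on the minus strand. *Cox7a2*, the ubiquitous form of subunit VIIa, lies at chr9:79759854-79760053 on the minus strand, and its heart and muscle form *Cox7a1* at chr7:30183971-30184170 on the plus strand.
Cox6a1: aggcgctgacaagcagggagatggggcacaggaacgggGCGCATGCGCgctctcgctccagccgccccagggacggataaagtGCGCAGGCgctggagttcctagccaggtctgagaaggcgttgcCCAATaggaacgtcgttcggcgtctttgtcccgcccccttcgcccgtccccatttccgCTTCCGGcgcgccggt
Cox6b1: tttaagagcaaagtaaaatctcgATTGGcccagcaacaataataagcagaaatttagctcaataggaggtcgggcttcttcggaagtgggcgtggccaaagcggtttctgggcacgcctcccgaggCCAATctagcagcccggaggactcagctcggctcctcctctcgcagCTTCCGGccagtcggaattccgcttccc
Cox6b2: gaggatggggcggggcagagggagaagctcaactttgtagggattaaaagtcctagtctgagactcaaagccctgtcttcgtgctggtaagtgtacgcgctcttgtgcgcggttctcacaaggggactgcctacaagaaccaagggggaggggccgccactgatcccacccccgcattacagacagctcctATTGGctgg
Cox7a2: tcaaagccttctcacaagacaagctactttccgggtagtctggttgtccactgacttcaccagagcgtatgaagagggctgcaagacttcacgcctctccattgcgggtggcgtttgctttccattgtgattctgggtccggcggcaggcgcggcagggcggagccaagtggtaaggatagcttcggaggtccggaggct
Cox7a1: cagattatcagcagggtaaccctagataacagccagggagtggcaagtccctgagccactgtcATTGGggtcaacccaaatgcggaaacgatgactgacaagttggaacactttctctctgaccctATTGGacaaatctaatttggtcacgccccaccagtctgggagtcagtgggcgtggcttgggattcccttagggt
In these stretches *Cox6a1* held 3 NRF1 matches, some of them overlapping, 1 ETS match and 1 CCAAT match, and *Cox6b1* held 1 ETS match and 2 CCAAT matches. Neither *Cox6b2* nor *Cox7a1* held an NRF1 or ETS match, and each held CCAAT (1 and 2 matches). No match of any of these motifs was found in the 200 bases of *Cox7a2*, which is a statement about these letters and not about any factor.

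The deposited unit is FPKM, fragments scaled by transcript length and by the number of mapped fragments, which allows levels to be compared between genes. The paper gives the uniquely mapped reads of each library, with the fewest in FL GFP-. Read counts per gene were not used here, so the reads behind a value and the precision of a single FPKM are unknown. The FPKM of all genes summed to 646854 (GFP+) and 541453 (GFP-) in the FL libraries, and to 1000848 (GFP+) and 729311 (GFP-) in their BM counterparts. Genes above 0 numbered 12372 (GFP+) and 15556 (GFP-) in the FL, and 13489 (GFP+) and 17345 (GFP-) in the BM. Each GFP+ library thus had fewer than its GFP- partner, and the part of this in genes low or listed at 0 in GFP+ cells was not tested. Tissue labels could be set against fetal genes: all 8 genes of a fetal list (among them *Lin28b*, *Igf2bp1*, *H19* and *Igf2*) were higher in both FL libraries, with a summed FPKM of 544 and 181 in FL against 6.99 and 6.88 in BM. The GFP labels were not checked against the reporter here. All 8 HSC markers were above 0 in the libraries, except that *Procr* was listed at 0 in BM GFP+ cells, where *Kit* was 22.2 against 76.6 in BM GFP- and 102 and 150.3 FPKM in FL cells. *Ly6a*, which encodes Sca1, was highest in BM GFP+ cells, at 19.7 and 46.3 FPKM in GFP+ and GFP- FL cells, and 286 and 146 in GFP+ and GFP- BM cells. The BM libraries, and BM GFP+ above all, also carried RNA of neutrophil, erythroid and B cell marker genes, lineages that the sort was set to remove. The neutrophil list includes *Elane* and *Mpo*, which immature myeloid cells also express, at 3042 and 4754 FPKM in BM GFP- cells. Its sum is therefore not one of mature cells alone. The FPKM of 8 neutrophil markers summed to 354 and 154 in the GFP+ and GFP- libraries of the FL, and to 60735 and 14708 in their BM counterparts, and all 8 were higher in both BM than in both FL libraries and higher in BM GFP+ than in BM GFP-. The 8 erythroid markers summed to 942, 895, 20402 and 2824 in the same order, and the 6 B cell markers to 96.3, 41.9, 3356 and 874, with *Ebf1* and *Pax5* listed at 0 in both FL libraries. *Cd48*, which the sort selects against, was at 51.4 and 17.4 FPKM in GFP+ and GFP- FL cells, and 267 and 126 in GFP+ and GFP- BM cells. The 8 hepatocyte markers summed to 452 FPKM in FL GFP+ against 69.7 in FL GFP- cells, with *Alb* at 139.5 and 9.49. In RNA from bulk samples, fewer cells of a type and less RNA per cell cannot be told apart.

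Nearly all nuclear genes of the chain were detected, at levels well above those of the typical gene. Of the 94 members, 90 had a mean FPKM over the 4 libraries of at least 1, the filter used below, as did 12022 of all genes. The 4 below it were *Cox8b* and the 3 genes listed at 0 in every library, *Cox7b2*, *Cox8c* and *Ndufa4l2*. The median over the 90 members was 135 (GFP+) and 125 FPKM (GFP-) in the FL, and 270.1 (GFP+) and 195 FPKM (GFP-) in the BM, against 12.03 to 13.4 over all genes passing the filter. Members thus stood highest in BM GFP+ and lowest in FL GFP- cells: 65 of the 90 had their highest value in BM GFP+ (against 35.4% of all genes) and 54 their lowest in FL GFP- (against 22.4%). Together the 94 genes held 2.46% (GFP+) and 2.53% (GFP-) of the summed FPKM in the FL, and 2.70% (GFP+) and 2.92% (GFP-) in the BM. As a share of each library's total they were therefore highest in BM GFP- cells, while the members' summed FPKM was highest in BM GFP+ (27003) and lower in BM GFP- (21308), FL GFP+ (15918) and FL GFP- cells (13678).

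**Figure D1:**
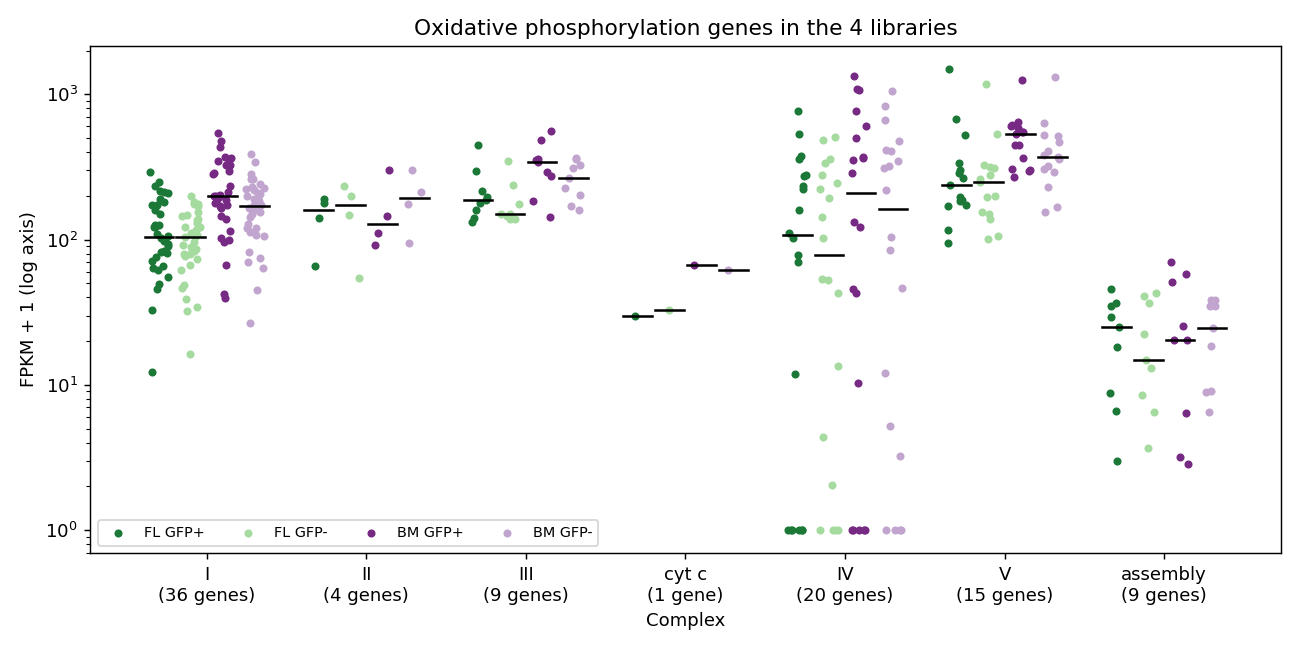
FPKM + 1 on a log axis of the 94 oxidative phosphorylation genes, grouped by complex, in FL GFP+, FL GFP-, BM GFP+ and BM GFP- cells (1 library each). Each point is 1 gene and each bar is the median of the genes of that complex in that library; in complexes I, III, IV and V the bars of both BM libraries lie above those of both FL libraries, and points at 1 are genes listed at 0.

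The levels differed between complexes as well as between libraries. Complex V had the highest median in each library (236 and 249 FPKM in GFP+ and GFP- FL cells, 533 and 372 FPKM in GFP+ and GFP- BM cells). *Atp5b*, the catalytic beta subunit of ATP synthase, was the member with the highest mean, at 1491 and 1166 FPKM in GFP+ and GFP- FL cells, and 1260.0 and 1322 in GFP+ and GFP- BM cells. *Cox4i1*, the ubiquitous form of subunit IV of cytochrome c oxidase, followed at 768 and 485 FPKM in GFP+ and GFP- FL cells, and 1334 and 1054 in GFP+ and GFP- BM cells. Complex I had medians of 103 FPKM in both FL libraries, against 197 and 168 FPKM in the GFP+ and GFP- libraries of the BM. At the other end, the 9 assembly and coupling factors, which are not part of the finished complexes, had medians of 23.8 and 13.7 FPKM in GFP+ and GFP- FL cells, and of 19.5 and 23.6 FPKM in their BM counterparts. Cytochrome c itself was low for a component of the chain, with *Cycs* at 28.8 and 31.7 FPKM in GFP+ and GFP- FL cells, and 66.2 and 60.4 in GFP+ and GFP- BM cells.

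The comparison of GFP+ with GFP- cells asks how the BMP-activated fraction differs from the non-activated one. Differences are given as log2 of (FPKM + 1) in the first library over (FPKM + 1) in the second, a scale that understates the difference of genes with low FPKM. In the FL, the median difference over the 90 members was 0.21, against 0.04 over all genes, and 61 members were higher in GFP+ (67.8%, against 51.6% of all genes) and 28 lower (31.1%, against 45.0%). With the 4 libraries scaled to equal FPKM totals the median over members turned to −0.05 and over all genes to −0.12, and with equal upper quartiles to −0.01 and −0.09, so that the direction depended on the scaling while the members stayed 0.07 to 0.17 above all genes. Among genes with a mean FPKM of at least 10 the members stood 0.035 above all genes, and among those with a median transcript of at least 1500 bases they were lower by 0.095. Only 1 member, *Ndufaf7*, was more than 2-fold higher in FL GFP+ cells (1.11% of members, against 14.6% of all genes), and 3 were more than 2-fold lower, *Cox7a1*, *Ndufaf4* and *Ndufs7* (3.33%, against 19.4% of all genes). A pseudocount of 0.1 in place of 1 gave 2 higher and 3 lower. Both shares were below those of all genes, also of the genes with a mean FPKM of at least 10, of which 12.4% were higher and 11.2% lower. The hepatocyte marker sum given above was also higher in FL GFP+ than in FL GFP- cells (452 against 69.7 FPKM), and its part in the members' differences was not tested.

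In the BM, the median difference between GFP+ and GFP- cells was 0.34 over the members and 0.09 over all genes, and 69 members were higher in GFP+ (76.7%, against 53.8% of all genes) and 21 lower (23.3%, against 45.2%). Equal FPKM totals turned the sign of these medians, to −0.12 for members and −0.30 for all genes, and left the members 0.19 above all genes in place of 0.25. Equal upper quartiles kept the direction of the members, with a median of 0.24 against 0 over all genes and 64 of the 90 members higher in GFP+. Of the 90 members, 3 were more than 2-fold higher in GFP+ cells (*Cox4i2*, *Cox6a2* and *Ndufa1*; 3.33%, against 16.2% of all genes) and 3 more than 2-fold lower (*Atp5s*, *Cox7a1* and *Ndufaf5*, against 14.2%). With equal totals the split was 2 higher and 7 lower. The neutrophil, erythroid and B cell marker sums given above were 4.13-fold, 7.23-fold and 3.84-fold higher in BM GFP+ than in BM GFP- cells, and their part in the members' differences was not tested.

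Across the tissues, 49 of the 90 members were higher in GFP+ than in GFP- cells both within the FL and within the BM (54.4%, against 27.0% of all genes), and 9 were lower in both (10%, against 20.5%). With equal totals these counts were 14 (15.6%, against 13.0% of all genes) and 26 (28.9%, against 36.2%). With equal upper quartiles they were 28 (31.1%, against 20.1% of all genes) and 11 (12.2%, against 27.0%). The direction of the counts was thus reversed by equal totals and kept by equal upper quartiles. Under each scaling the share of members higher in GFP+ was above that of all genes, and the share lower was below it. Only 9 members had both GFP+ libraries above both GFP- libraries (against 14.2% of all genes): *Atp5g2*, *Cyc1*, *Ndufa13*, *Ndufa7*, *Ndufa9*, *Ndufaf2*, *Ndufaf7*, *Ndufs3* and *Uqcrfs1*. Of these, 1 kept the order with equal totals (*Ndufa13*) and 5 with equal upper quartiles. In 7 members both GFP- libraries lay above both GFP+ libraries (against 12.6%): *Atp5f1*, *Cox7a1*, *Cox7a2l*, *Ndufaf1*, *Ndufaf4*, *Sdha* and *Uqcrc2*. All 7 kept this order with equal totals and with equal upper quartiles. By the rule of more than 2 times the FPKM in the same direction in both tissues, 0 members were high in GFP+ cells (against 3.45% of all genes) and 1, *Cox7a1*, was high in GFP- cells (against 5.90%).

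**Figure D2:**
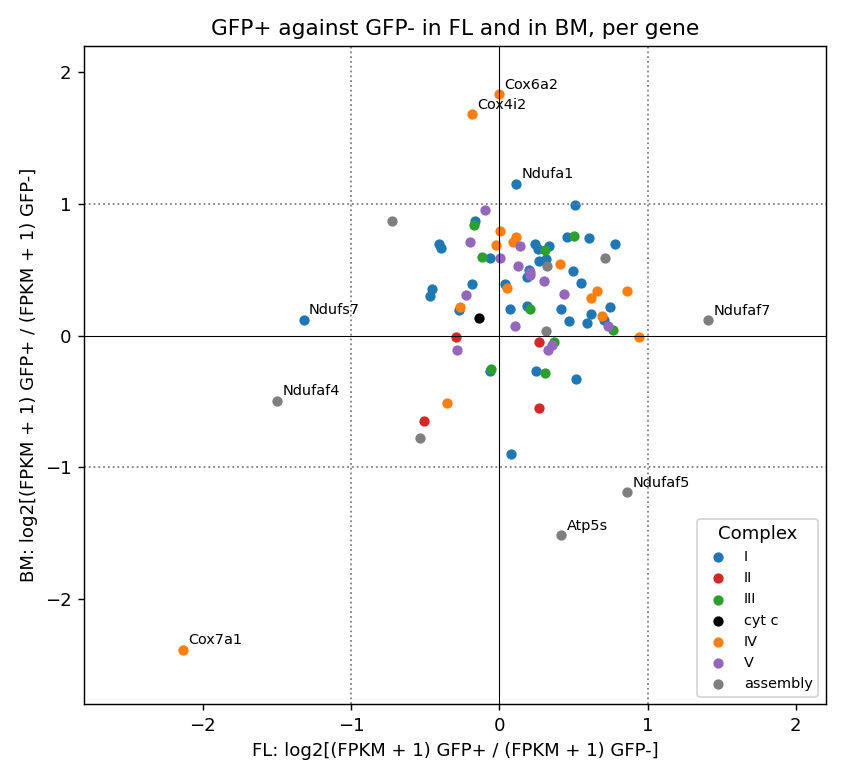
Log2 difference between GFP+ and GFP- cells on the FPKM + 1 scale in the FL (x axis) and in the BM (y axis), 1 point for each of the 90 genes with a mean FPKM of at least 1, coloured by complex. Dotted lines mark 2-fold; most points lie inside them, and Cox7a1, listed at 0 in both GFP+ libraries, is the only gene past the lower line in both tissues.

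Between tissues, the members were lower in the FL than in the BM. In GFP- cells the median difference of FL against BM was −0.66 over the members and −0.06 over all genes, and 83 of 90 members were lower in the FL (92.2%, against 52.6% of all genes). In GFP+ cells it was −0.81 against −0.08, with 73 of 90 lower (81.1%, against 52.1%). Equal FPKM totals raised the median of all genes to 0.32 in GFP- and 0.39 in GFP+ cells, and those of the members to −0.23 and −0.19. Relative to all genes the members' median was thus −0.60 as deposited and −0.55 with equal totals in GFP- cells, and −0.74 and −0.58 in GFP+ cells. Both BM libraries lay above both FL libraries for 62 of 90 members (68.9%, against 27.4% of all genes), and for 47 (52.2%, against 15.3%) with equal totals. The opposite order held for 2 members (against 21.3% of all genes), *Cox4i2* and *Cox6b2*, both tissue-restricted forms of complex IV subunits.

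Past 2-fold, the tissue difference in GFP- cells took in 12 members that were lower in the FL (13.3%, against 14.6% of all genes) and 1 that was higher (*Cox4i2*, against 11.9%). The share past 2-fold was thus close to that of all genes, although the direction was shared by nearly all members. In GFP+ cells 38 members were more than 2-fold lower in the FL (42.2%, against 29.1% of all genes) and 3 were higher (*Atp5s*, *Cox6b2* and *Ndufaf5*, against 21.9%). With equal totals the splits were 1 higher and 1 lower in GFP- cells, and 6 higher and 12 lower in GFP+ cells. The neutrophil, erythroid and B cell marker sums moved with this contrast in the same direction, with neutrophil markers at 354 against 60735 FPKM in GFP+ and 154 against 14708 in GFP- cells. The part of these markers in it was not tested.

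Transcript length also moved with the tissue difference. The members are short, with a median coding transcript of 691 bases in GENCODE vM1 against 2158.5 bases over all genes passing the filter (87 of the 90 members had a length). In GFP- cells the 49 members under 800 bases had a median FL against BM difference of −0.80, where all 973 genes of that length had −0.51. The 26 members of 800 to under 1500 bases had −0.56, against −0.39, and the 12 members of 1500 bases and over had −0.25, against 0.09. In GFP+ cells the same bands gave −1.11 against −0.68, −0.43 against −0.27 and −0.42 against 0.004. Within each of these bands the members' median was thus below that of all genes, by less than without regard to length. Taking each gene's longest transcript left 38 members under 800 bases at −0.81 against −0.77 in GFP- and −1.09 against −1.06 in GFP+ cells, a smaller gap than by the median transcript. The 24 members whose longest transcript had 1500 bases or more were at −0.62 against 0.04 in GFP- cells, a wider gap than without regard to length, and at −0.43 against 0 in GFP+ cells, so that the gaps depended on which transcript was used. Among GFP+ against GFP- differences in the BM, short members stood higher as well, with 0.53 under 800 bases (all genes 0.29), 0.12 at 800 to under 1500 (0.03) and 0.03 at 1500 and over (0.10). In the FL the bands had 0.20, 0.24 and −0.06, against 0.09, 0.13 and 0.03. The part of length in these differences was not tested beyond these bands.

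**Figure D3:**
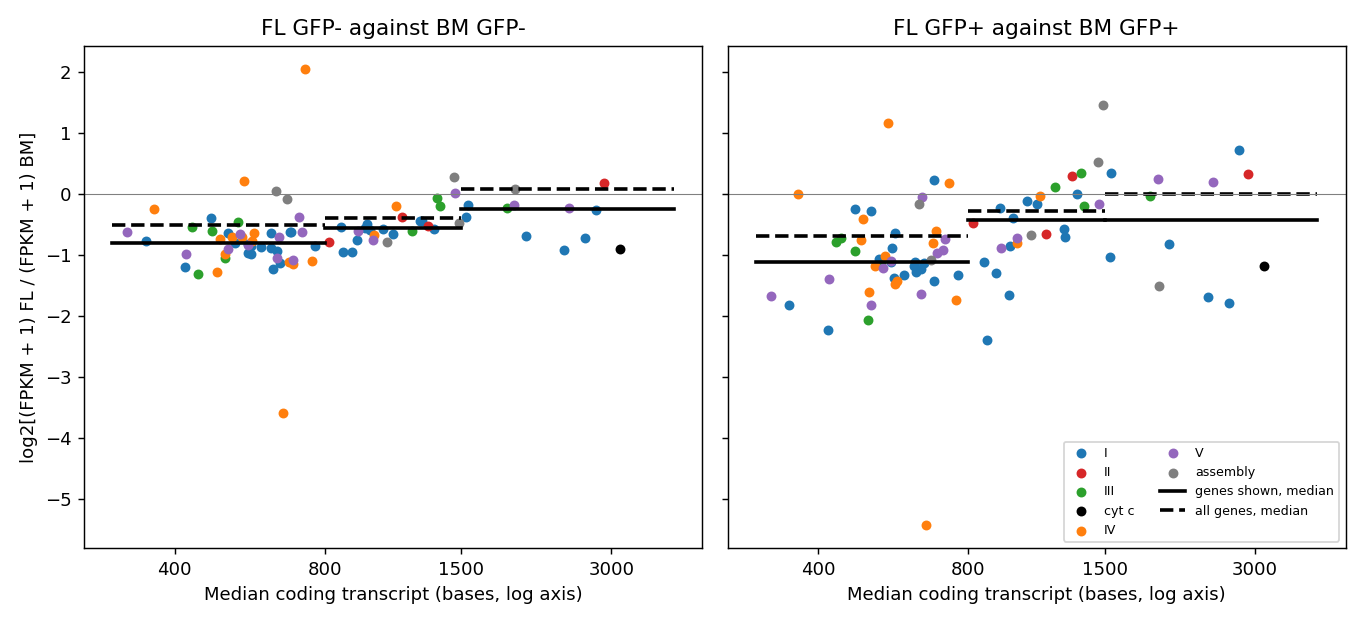
Log2 difference of FL against BM on the FPKM + 1 scale for GFP- cells (left) and GFP+ cells (right), against the median coding transcript length in bases on a log axis, 1 point for each of the 87 genes with a length, coloured by complex. Solid bars are the medians of the genes shown and dashed bars those of all genes in the same length band; in each of the 6 bands the solid bar is the lower one, and both rise from the shortest to the longest band in GFP- cells.

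In complex I, the 7 nuclear-encoded core subunits, which carry the electrons, and the 29 accessory subunits, which surround them, did not show the same tissue difference in GFP+ cells. The median FL against BM difference there was −0.16 over the core and −1.12 over the accessory subunits, while in GFP- cells it was −0.57 and −0.78. With equal FPKM totals the core turned to 0.47 in GFP+ cells while the accessory subunits stayed at −0.49. All 36 genes were lower in FL GFP- than in BM GFP- cells. The accessory subunits are also shorter, with a median coding transcript of 651 bases against 1046. Against BM GFP-, BM GFP+ cells had 27 of 29 accessory subunits higher (median 0.49) and 5 of 7 core subunits (median 0.12), medians that became 0.04 and −0.33 with equal totals.

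Among the core subunits, *Ndufs1*, the largest iron-sulphur protein of the complex, was at 64.5 and 61.1 FPKM in GFP+ and GFP- FL cells, and 38.9 and 73.4 in GFP+ and GFP- BM cells. It was lowest in BM GFP+ cells, which differed by −0.90 from BM GFP-, and FL GFP+ lay 0.72 above them. *Ndufs7*, which carries the last iron-sulphur cluster before quinone, went the other way at 69.8 and 176 FPKM in GFP+ and GFP- FL cells, and 370.1 and 340.1 in GFP+ and GFP- BM cells. Its FL GFP+ value stood apart below the other 3 libraries (−1.32 against FL GFP- and −2.39 against BM GFP+). *Ndufs8*, another iron-sulphur subunit of the same arm, was at 102 and 135 FPKM in GFP+ and GFP- FL cells, and 324 and 199.6 in GFP+ and GFP- BM cells, with FL GFP+ again the lowest. *Ndufs3*, a structural core subunit, was at 159 and 103 FPKM in GFP+ and GFP- FL cells, and 172 and 153 in GFP+ and GFP- BM cells. For the NADH-binding end, *Ndufv1*, which holds the flavin that accepts the electrons of NADH, was at 182 and 120.4 FPKM in GFP+ and GFP- FL cells, and 203 and 189 in GFP+ and GFP- BM cells. Its partner *Ndufv2* was at 80.9 and 47.8 FPKM in GFP+ and GFP- FL cells, and 95.0 and 81.5 in GFP+ and GFP- BM cells. In *Ndufs3*, *Ndufv1* and *Ndufv2*, FL GFP- was the lowest of the 4 libraries and the remaining 3 lay close to each other.

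The accessory subunits of complex I were led by *Ndufb9*, in the membrane arm, at 248 and 176 FPKM in GFP+ and GFP- FL cells, and 544 and 387 in GFP+ and GFP- BM cells. Both BM libraries were above both FL libraries, with differences of −1.13 in GFP- and −1.13 in GFP+ cells. *Ndufa1*, a small X-linked membrane subunit needed for assembly, was at 48.8 and 45.0 FPKM in GFP+ and GFP- FL cells, and 233 and 104 in GFP+ and GFP- BM cells. It had the largest GFP difference of complex I in the BM (1.15) and was close to equal in the FL (0.11), and both FL libraries were more than 2-fold below their BM counterparts. *Ndufs5* had the largest difference toward GFP+ of the complex in the FL, at 54.6 and 31.3 FPKM in GFP+ and GFP- FL cells, and 102 and 62.5 in GFP+ and GFP- BM cells (0.78 in FL and 0.69 in BM). Among the remaining accessory genes past 2-fold in GFP- cells between tissues was *Ndufb10*, named because it passed, at 82.2 and 72.2 FPKM in GFP+ and GFP- FL cells, and 199.8 and 171 in GFP+ and GFP- BM cells.

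Complex II, the succinate dehydrogenase that also works in the tricarboxylic acid (TCA) cycle, had a lower median GFP difference in the BM than complexes I, III, IV and V. All 4 of its genes were lower in BM GFP+ than in BM GFP- cells (against 45.2% of all genes), *Sdhb* and *Sdhc* only slightly, at −0.01 and −0.05. The median was −0.30 (−0.75 with equal totals), where complexes I, III, IV and V had medians of 0.40, 0.20, 0.35 and 0.41 (−0.06, −0.25, −0.10 and −0.04 with equal totals). Its median coding transcript was also longer, at 1214.5 bases against 535 to 812 in those complexes, and the part of length was not tested. *Sdha*, the flavoprotein that oxidizes succinate, was at 139 and 198 FPKM in GFP+ and GFP- FL cells, and 111 and 174 in GFP+ and GFP- BM cells. Both GFP- libraries were above both GFP+ libraries, with differences of −0.51 in the FL and −0.65 in the BM. *Sdhb*, the iron-sulphur subunit, was at 188 and 231 FPKM in GFP+ and GFP- FL cells, and 298 and 300.5 in GFP+ and GFP- BM cells, nearly equal within the BM. The membrane anchors differed from each other: *Sdhc* was at 64.5 and 53.4 FPKM in GFP+ and GFP- FL cells, and 90.1 and 93.2 in GFP+ and GFP- BM cells, lower in both FL libraries. *Sdhd* was at 178 and 147 FPKM in GFP+ and GFP- FL cells, and 145 and 213 in GFP+ and GFP- BM cells, where BM GFP- was the highest library and BM GFP+ the lowest. Between the GFP+ libraries the complex had a median of −0.09, which became 0.53 with equal totals, and none of the 4 genes passed 2-fold in any comparison as deposited. With equal totals *Sdha* and *Sdhd* passed it in the BM, at −1.10 and −1.005 for GFP+ against GFP-.

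In complex III, which passes electrons from quinol to cytochrome c, the tissue difference varied widely from gene to gene. *Cyc1*, cytochrome c1, was at 296 and 174 FPKM in GFP+ and GFP- FL cells, and 272 and 265 in GFP+ and GFP- BM cells, with FL GFP- the lowest library and FL GFP+ the highest (0.77 between the FL fractions). The core protein *Uqcrc1* was the highest gene of the complex by its mean, at 447 and 345 FPKM in GFP+ and GFP- FL cells, and 351 and 363 in GFP+ and GFP- BM cells, and its BM values lay between the FL values. *Uqcrq*, a small subunit, was at 131 and 148 FPKM in GFP+ and GFP- FL cells, and 553 and 309 in GFP+ and GFP- BM cells. Its BM values were both far above the FL values (−1.05 in GFP- and −2.07 in GFP+ cells). *Uqcr11*, another small subunit, was at 178 and 143 FPKM in GFP+ and GFP- FL cells, and 293 and 357 in GFP+ and GFP- BM cells, lower in both FL libraries, and it was the lowest of the complex for GFP+ against GFP- in the BM (−0.28). All 9 genes were lower in FL GFP- than in BM GFP- cells (median −0.54), with a range from −1.31 to −0.07. *Cycs*, the carrier that complex III reduces, was about 2-fold lower in the FL, with −0.91 in GFP- and −1.17 in GFP+ cells, and differed little by GFP (−0.13 in FL and 0.13 in BM).

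Complex IV, cytochrome c oxidase, is the complex in which several subunits exist in ubiquitous and tissue-restricted forms, and in these cells the ubiquitous form of each such subunit was the higher one in every library, with the largest share of a restricted form in subunit VIb. Of the Cox4 pair, *Cox4i2*, a form known from lung and from low oxygen, was at 10.8 and 12.4 FPKM in GFP+ and GFP- FL cells, and 9.37 and 2.24 in GFP+ and GFP- BM cells. It made up 1.39% and 2.49% of the pair in GFP+ and GFP- FL cells, and 0.698% and 0.212% in their BM counterparts. The BM GFP- value stood below the other 3, and the log2 differences were 2.05 between tissues in the GFP- fraction and 1.68 between the BM fractions. *Cox6a1*, whose promoter is printed above, was at 275 and 279 FPKM in GFP+ and GFP- FL cells, and 766 and 475 in GFP+ and GFP- BM cells. Its heart and muscle form *Cox6a2* was listed at 0 in both FL libraries and reached 41.9 (GFP+) and 11.1 FPKM (GFP-) in the BM, or 5.19% and 2.28% of the pair (1.83 between the BM fractions). The fitted differences between tissues of such a gene depend on the pseudocount and are not given here.

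*Cox6b2*, the testis form of subunit VIb, was the tissue-restricted form with the highest level, at 102 and 52.3 FPKM in GFP+ and GFP- FL cells, and 44.8 and 45.1 in GFP+ and GFP- BM cells. Its ubiquitous partner *Cox6b1* was at 357 and 335 FPKM in GFP+ and GFP- FL cells, and 1083 and 663 in GFP+ and GFP- BM cells. *Cox6b2* was higher in both FL libraries than in both BM libraries while *Cox6b1* was lower, so that *Cox6b2* made up 22.1% and 13.5% of the pair in GFP+ and GFP- FL cells, and 3.97% and 6.37% in their BM counterparts. This share is a ratio within a library and does not move with the scaling of libraries. FL GFP+ was the highest library for *Cox6b2* (0.94 against FL GFP- and 1.16 against BM GFP+), with the BM fractions nearly equal (−0.01).

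*Cox7a1*, the heart and muscle form of subunit VIIa, was the 1 member high in GFP- cells by the rule of both tissues. It was listed at 0 in both GFP+ libraries and reached 3.39 (FL) and 4.22 FPKM (BM) in the GFP- libraries, where it made up 3.21% and 1.89% of the sum with *Cox7a2*. These are low values, and a mean FPKM of at least 10 would leave the gene out. Each GFP+ library also had fewer genes above 0 than its GFP- partner, as given above, and the part of this was not tested. *Cox7a2*, the ubiquitous form, was at 110.5 and 102 FPKM in GFP+ and GFP- FL cells, and 370.1 and 219.6 in GFP+ and GFP- BM cells, with both BM libraries above both FL libraries. *Cox7a2l*, related in sequence and known for joining complexes III and IV into supercomplexes, was at 279 and 356 FPKM in GFP+ and GFP- FL cells, and 285 and 407 in GFP+ and GFP- BM cells. Here both GFP- libraries lay above both GFP+ libraries (−0.35 in FL and −0.51 in BM), and the tissues differed little (−0.19 and −0.03).

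Of the subunit VIII genes, *Cox8a*, the ubiquitous form, was at 529 and 510.2 FPKM in GFP+ and GFP- FL cells, and 1073 and 833 in GFP+ and GFP- BM cells. *Cox8b*, the heart and muscle form, was listed at 0 except for 1.06 in FL GFP- cells, and *Cox8c*, a testis form, was listed at 0 in all 4 libraries. *Ndufa4*, once assigned to complex I and now to complex IV, was at 375 and 244 FPKM in GFP+ and GFP- FL cells, and 499 and 409.6 in GFP+ and GFP- BM cells, with its relative *Ndufa4l2* listed at 0 throughout. The ubiquitous genes *Cox5a* and *Cox7c* were among the 5 members of the complex more than 2-fold lower in FL GFP- than in BM GFP- cells, and are named for that reason. *Cox5a* was at 231 and 142 FPKM in GFP+ and GFP- FL cells, and 352 and 318 in GFP+ and GFP- BM cells, and *Cox7c* was at 77.1 and 42.0 FPKM in GFP+ and GFP- FL cells, and 131 and 104 in GFP+ and GFP- BM cells. In both, FL GFP- was the lowest library and FL GFP+ lay between it and the BM.

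**Figure D4:**
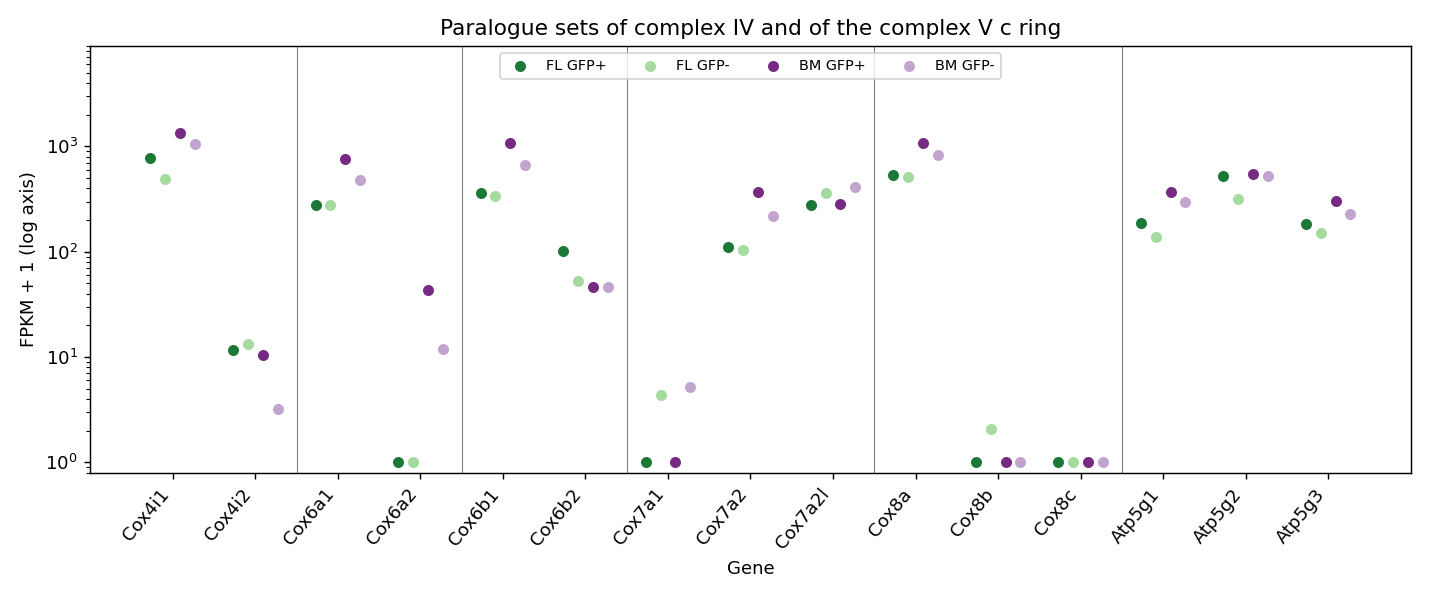
FPKM + 1 on a log axis of the alternative forms of complex IV subunits and of the complex V c ring in FL GFP+, FL GFP-, BM GFP+ and BM GFP- cells, 1 point per library, with points at 1 listed at 0. The muscle and testis forms Cox6a2, Cox7a1, Cox8b and Cox8c lie far below the ubiquitous form of the same subunit, Cox6b2 is higher in both FL than in both BM libraries, and the 3 c ring genes all lie between 138 and 545 FPKM.

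In complex V, the median tissue difference in GFP+ cells was largest in the small membrane subunits, while the values of the head overlapped those of every other part. Single genes ran from −1.39 to 0.24 in the head, −1.63 to −0.16 in the peripheral stalk, −0.97 to −0.05 in the c ring and −1.81 to −1.21 in the membrane subunits. The 5 subunits of the head and central stalk, which make ATP, had a median of −0.72, the 4 of the peripheral stalk −1.01, the 3 c ring genes −0.73 and the 3 small membrane subunits −1.67. With equal totals these medians became −0.09, −0.38, −0.10 and −1.05. In GFP- cells the same parts had −0.61, −0.61, −0.70 and −0.66. *Atp5a1*, which forms the head with *Atp5b*, was at 671 and 535 FPKM in GFP+ and GFP- FL cells, and 586 and 631 in GFP+ and GFP- BM cells, and for both genes the FL GFP+ library was the highest. The small membrane subunit *Atp5k* was at 93.0 and 99.4 FPKM in GFP+ and GFP- FL cells, and 299 and 153 in GFP+ and GFP- BM cells, about 2-fold higher in BM GFP+ than in BM GFP- cells (0.96), and the tissue difference in the GFP+ fraction was −1.67. The other two small membrane subunits, *Atp5j2* and *Atp5l*, also had BM GFP+ as the highest library and both FL libraries below both BM libraries, with the membrane subunits ranging from 0.68 to 0.96 for BM GFP+ against BM GFP-. They have a median coding transcript of 511 bases, against 1000 in the head. *Atp5f1*, the b subunit of the peripheral stalk, differed from these at 264 and 323 FPKM in GFP+ and GFP- FL cells, and 295 and 318 in GFP+ and GFP- BM cells. Its 4 values were close, with both GFP- libraries above both GFP+ libraries (−0.29 in FL and −0.11 in BM).

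The c ring, the rotor through which protons pass, is made from 3 genes that encode the same mature protein. *Atp5g2* was the highest of them at 527 and 317 FPKM in GFP+ and GFP- FL cells, and 545 and 517 in GFP+ and GFP- BM cells. *Atp5g1* was at 186 and 138 FPKM in GFP+ and GFP- FL cells, and 365 and 293 in GFP+ and GFP- BM cells, and *Atp5g3* at 183 and 149 FPKM in GFP+ and GFP- FL cells, and 305 and 229 in GFP+ and GFP- BM cells. *Atp5g2* made up 58.7% and 52.6% of the sum in GFP+ and GFP- FL cells and 44.8% and 49.8% in their BM counterparts, and *Atp5g1* 20.8% and 22.8% in the FL against 30.1% and 28.2% in the BM. In the FL, *Atp5g2* had the largest GFP difference of the complex (0.73).

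The assembly factors, which help build the complexes and leave them, made up 4 of the 9 members past 2-fold by GFP in either tissue. In the FL, 1 of the 9 assembly and coupling factors was higher in GFP+ and 1 lower (against 14.6% and 19.4% of all genes). In the BM, 0 were higher and 2 lower (against 16.2% and 14.2%). *Ndufaf7*, a methyltransferase that acts on complex I, was at 33.9 and 12.1 FPKM in GFP+ and GFP- FL cells, and 19.2 and 17.6 in GFP+ and GFP- BM cells, with FL GFP+ standing above the other 3 libraries (1.41 in FL and 0.12 in BM). *Ndufaf5*, an enzyme that hydroxylates *Ndufs7*, was at 5.63 and 2.65 FPKM in GFP+ and GFP- FL cells, and 1.86 and 5.53 in GFP+ and GFP- BM cells (0.86 and −1.19). Its lowest value was in BM GFP+ cells, as was that of *Atp5s*, a coupling factor of ATP synthase, at 7.75 and 5.55 FPKM in GFP+ and GFP- FL cells, and 2.19 and 8.11 in GFP+ and GFP- BM cells. *Ndufaf4* was at 2.01 and 7.50 FPKM in GFP+ and GFP- FL cells, and 5.37 and 7.98 in GFP+ and GFP- BM cells, lower in both GFP+ libraries (−1.50 and −0.50). *Atp5sl*, the highest of the group by its mean, was at 23.8 and 40.0 FPKM in GFP+ and GFP- FL cells, and 69.6 and 37.6 in GFP+ and GFP- BM cells, with BM GFP+ the highest and FL GFP+ the lowest. Apart from *Ndufaf7* and *Atp5sl* these are genes of under 10 FPKM in every library, where a single value without counts has an unknown error.

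In the RefSeq promoters (250 bases before to 50 after the start, GRCm38.p6), 77 of the 94 members were matched. The NRF1 motif was found in 27 of them (35.1%, against 11.2% of 27025 genes), the ETS motif in 17 (22.1%, against 9.93%), AAGATGG, a YY1 motif, in 12 (15.6%, against 7.28%) and CCAAT in 35 (45.5%, against 41.1%), on either strand. NRF1, ETS and YY1 family factors are textbook regulators of nuclear genes for mitochondria. Members with and without the NRF1 motif had medians of −0.72 and −0.64 for FL against BM in GFP- cells and of −1.08 and −0.80 in GFP+ cells. For GFP+ against GFP- the medians were 0.18 and 0.24 in FL cells, and 0.39 and 0.33 in BM cells. Of the genes whose promoters are printed above, *Cox6a1* with and *Cox7a2* without an NRF1 match were both higher in both BM libraries than in both FL libraries.

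Genes that work beside the chain were counted from separate lists. Of 36 further assembly factors passing the filter, 5 were more than 2-fold higher and 8 lower in FL GFP+ than in FL GFP- cells, and 3 higher and 4 lower in BM GFP+ than in BM GFP- cells. Of all genes 14.6% were higher and 19.4% lower in FL GFP+ cells, and 16.2% higher and 14.2% lower in BM GFP+ cells. Past 2-fold in the same direction in both tissues were *Pet117*, a complex IV assembly factor that was higher in GFP+ cells, and *Sco1*, *Sco2* and *Tmem126b*, which were lower. *Sco2*, which delivers copper to complex IV, was at 7.83 and 53.2 FPKM in GFP+ and GFP- FL cells, and 29.5 and 61.3 in GFP+ and GFP- BM cells. *Sco1*, its relative, was at 0.886 and 4.77 FPKM in GFP+ and GFP- FL cells, and 1.10 and 4.55 in GFP+ and GFP- BM cells. *Tmem126b*, needed to build complex I, was listed at 0 in FL GFP+ cells, against 34.9 FPKM in FL GFP-, and reached 5.45 (GFP+) and 26.5 FPKM (GFP-) in the BM. *Pet117* was at 45.2 and 17.1 FPKM in GFP+ and GFP- FL cells, and 26.2 and 6.19 in GFP+ and GFP- BM cells. The median FL against BM difference of this list was −0.07 in GFP- and −0.29 in GFP+ cells, against −0.66 and −0.81 over the members, and it turned to 0.34 and 0.27 with equal totals, against −0.23 and −0.19.

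Of 19 genes for energy coupling and electron carriers, 2 were more than 2-fold higher and 2 lower by GFP in the FL, and 1 higher and 2 lower in the BM, where all genes had the shares just given. *Coq3*, an enzyme that makes the quinone used between complexes I and III, was lower in GFP+ cells of both tissues at 0.843 and 9.06 FPKM in GFP+ and GFP- FL cells, and 2.31 and 7.04 in GFP+ and GFP- BM cells. The 17 TCA cycle and pyruvate dehydrogenase genes had a median of 0.37 for GFP+ against GFP- in the FL (2 higher and 1 lower past 2-fold) and of −0.07 in the BM (0 higher and 3 lower, with the same shares of all genes), or 0.12 and −0.52 with equal totals. Between tissues their median was −0.22 in GFP- (0.20 with equal totals) and 0.19 in GFP+ cells (0.82), with no gene of the list past 2-fold in GFP- cells (against 11.9% of all genes higher and 14.6% lower in the FL).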

How the data were processed

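RNA of 4 sorted LSK-SLAM samples was sequenced by the authors from SMARTer libraries on an Illumina HiSeq2000. The deposited FPKM were computed by the authors with Bowtie, TopHat and Cufflinks (version 2.2.1 in the submitters' processing notes), with corrections for fragment bias and multiple mapping, and library sizes were made comparable by the geometric setting of Cuffnorm. The methods name NCBI37/mm9 and the processing notes mm10, so no coordinates were taken from the files. SMARTer amplification and the per-length scaling can move values of short or low transcripts. The paper gives reads per library, but read counts per gene were not used here, so depth per value is unknown.

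Groups follow the labels, with 1 library each, and no test was made. Genes with a mean FPKM over the 4 libraries of at least 1 were compared as log2(FPKM + 1), and a gene was called past 2-fold. The members and lists were chosen with earlier results of these data known. Genes named are, for each complex, the highest by mean and the largest and smallest GFP differences in FL and BM; the genes of complex II, Cyc1 and Cycs; the paralogue sets; the core subunits of complex I; members past 2-fold in both tissues or listed at 0 in some libraries; and listed genes past 2-fold in both tissues. One gene that this rule names is not reported here. Other members past 2-fold, or not overlapping between groups, were named after their values were seen. Assignments to complexes were written by hand. Transcript lengths are from GENCODE vM1 (96.8% of members) and promoters from RefSeq GRCm38.p6.

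Alternatives were a pseudocount of 0.1, no filter, a mean FPKM of at least 10, equal FPKM totals, equal upper quartiles, centring on the median of all genes, thresholds of 1.5-fold and 4-fold, subunits and cytochrome c only, and identical symbols once. The bands by transcript length were added after seeing the data. Python 3.11.15, numpy 2.4.6, pandas 2.3.3 and matplotlib 3.10.9 were used, and the scripts were tested on simulated data.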

Additional observations from a re-analysis of the deposited data

Results flagged for a closer look

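In 4 members the GFP difference was past 2-fold in 1 tissue and of the opposite sign in the other, and the difference between the tissues was not tested. *Ndufs7*, the core subunit that carries the last iron-sulphur cluster of complex I, differed by −1.32 in FL and by 0.12 in BM cells (log2 difference of FPKM + 1), a BM minus FL difference of 1.44. With equal FPKM totals both *Ndufs7* values were negative (−1.58 and −0.33), so that the opposite sign was seen as deposited and not under that scaling. *Cox4i2*, the alternative form of subunit IV, differed by −0.18 in FL and by 1.68 in BM cells, a difference of 1.86. *Ndufaf5*, which modifies *Ndufs7*, differed by 0.86 in FL and by −1.19 in BM cells, a difference of −2.05. *Atp5s* differed by 0.42 in FL and by −1.52 in BM cells, a difference of −1.93. Apart from *Ndufs7* these are genes with a mean under 10 FPKM.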

How the results depend on the processing

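No paired analysis was possible because each group had 1 library. A value is given here where it moved by more than 1.5-fold. Counts are of members past 2-fold on log2(FPKM + 1), or past the named threshold. For FL GFP+ against FL GFP-, 1 higher became 2 (pseudocount of 0.1), 16 (1.5-fold), 0 (4-fold) and 0 (subunits only), and 3 lower became 1 (mean of at least 10) and 1 (4-fold). For BM GFP+ against BM GFP-, 3 higher became 28 (1.5-fold) and 0 (4-fold), and 3 lower became 0 (mean of at least 10), 7 (equal totals), 6 (1.5-fold), 1 (4-fold) and 1 (subunits only). For FL GFP- against BM GFP-, 1 higher became 2 (no filter) and 0 (mean of at least 10), and 12 lower became 1 (equal totals), 5 (equal upper quartiles), 57 (1.5-fold) and 1 (4-fold). For FL GFP+ against BM GFP+, 3 higher became 1 (mean of at least 10), 6 (equal totals), 5 (1.5-fold), 0 (4-fold) and 1 (subunits only), and 38 lower became 12 (equal totals) and 4 (4-fold). In both tissues, 0 high in GFP+ became 3 (1.5-fold), and 1 high in GFP- became 0 (mean of at least 10) and 2 (equal totals). With equal totals the median FL GFP+ against BM GFP+ difference moved to −0.19, and by complex to −0.46 (I), 0.53 (II), −0.089 (III), −0.56 (cytochrome c), −0.18 (IV), −0.29 (V) and 0.46 (assembly factors). Centring on all genes and counting identical symbols once moved none of these values by more than 1.5-fold. Depth limits each value to an unknown degree, since no counts per gene were used.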

Other observations

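Regulators of mitochondrial biogenesis, 15 of which had a mean FPKM of at least 1, were on balance higher in the FL, opposite to the genes of the chain. Their median FL against BM difference was 0.34 in GFP- and 0.996 in GFP+ cells as deposited (log2 of FPKM + 1), with 2 and 7 of them more than 2-fold higher in the FL and 0 and 1 lower. Of all genes 11.9% and 21.9% were higher and 14.6% and 29.1% lower, so that in GFP- cells the share past 2-fold higher was close to that of all genes. With equal totals the medians were 0.58 in GFP- and 1.51 in GFP+ cells, over the 16 genes then passing the filter. Their median coding transcripts ran from 564 (*Pprc1*) to 4078 bases (*Polg*), most of them above the members' median of 691, and the part of length was not tested. *Esrra*, an orphan nuclear receptor that acts on these genes, was past 2-fold higher in GFP+ cells of both tissues, at 11.4 and 3.65 FPKM in GFP+ and GFP- FL cells, and 9.12 and 2.66 in GFP+ and GFP- BM cells. *Tfb2m*, a factor for transcription of mitochondrial DNA, was past 2-fold lower, at 0.279 and 16.5 FPKM in GFP+ and GFP- FL cells, and 7.09 and 28.6 in GFP+ and GFP- BM cells. By GFP, 4 of the 15 were higher and 1 lower past 2-fold in the FL, and 1 higher and 5 lower in the BM, where all genes had 14.6% higher and 19.4% lower (FL) and 16.2% higher and 14.2% lower (BM). *Tfam*, which packages mitochondrial DNA, is named after its values were seen, at 43.4 and 17.6 FPKM in GFP+ and GFP- FL cells, and 4.53 and 19.8 in GFP+ and GFP- BM cells. FL GFP+ was its highest library and BM GFP+ its lowest.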
